A study of Mus musculus with 24 samples.

Results

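The genes described here encode surfactant proteins and other proteins associated with alveolar type II cells, not all of them secreted. They were chosen by name, as every probe set whose annotated symbol was Sftpa1, Sftpb, Sftpc, Sftpd, Napsa, Slc34a2, Hc or Chil1. Of the 8 listed genes 7 had a probe set, each exactly 1, among 12422 probe sets (8251 named genes), and Sftpa1 was not analysed here. Type II cells make pulmonary surfactant, the film of lipid and protein that lowers surface tension in the alveolus. They store it in lamellar bodies, organelles related to lysosomes, and release it by exocytosis. The hydrophobic proteins SP-B (Sftpb) and SP-C (Sftpc) organise the lipid film, while SP-D (Sftpd) is a collectin, a soluble lectin of innate defence. Sftpc is a common marker of the type II cell, while others, such as Sftpb and Sftpd, are also made by club cells.

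The study measured RNA on 24 arrays. The tumour group was 11 cell lines from lung tumours of 8-month-old mice carrying both a c-Myc and a c-Raf transgene, on 22 arrays, of which 5 lines had 3 arrays, 1 had 2 and 5 had 1. The control group was 2 preparations of alveolar epithelial type II cells from healthy animals without the transgenes, on 1 array each, titled AT (control 1) and AT2 (control 2). Neither the age of the control animals nor the promoters of the transgenes are named in the labels. Per the labels' protocols, the control cells were taken from trypsin-digested lung by a Percoll density gradient, and no sort by a type II marker is described. The lines were kept in serum-containing medium for up to 50 weekly passages, so tumour origin and culture cannot be told apart. Line gammaB8 carries that name in its titles and gammaA8 in its cell line field. No label tells if repeat arrays are separate cultures, if a line is 1 clone, or if a control is 1 animal or a pool, so p-values measure only the spread between these samples, which may be technical.

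Deposited values are linear signals scaled so that each array has the same trimmed mean, and the number of arrays limits their precision. The median signal of all probe sets was 53.2 to 75.5 on the tumour arrays, 93.8 on control 1 and 108 on control 2. For testing, signals were taken as log2(signal + 32), which compresses differences at low signal, and the arrays of a line were averaged. The 11 line means were set against the 2 control arrays in limma over the whole table, and calls needed both a 2-fold difference and an adjusted p (Benjamini-Hochberg) under 0.05. Calls in either direction made up 27.1% of all probe sets. By this rule 1260 probe sets were higher and 2103 lower in the lines, but 1661 and 1558 after quantile normalization, and 2489 and 1089 after centring arrays on their medians. Over all probe sets the median log2 difference was -0.11, against which quantile normalization gave 0.05 and centring 0.42, while the median of the 7 genes described here was -4.32 and -3.64 under those scalings.

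In the tumour lines the surfactant and type II secretory genes were low on every array. All 154 tumour values of the 7 genes lay below the median signal of their own array, and all 154 lay below both controls. The share of all probe sets that do either on every tumour array was not counted. These counts include repeat arrays of a line, so they are a description. Of the 7 genes 6 were called lower in the lines and none higher, where 16.9% of all probe sets were called lower. Only Sftpb, Sftpc and Napsa passed a filter that asks for a signal above the array median on at least 2 arrays, and through the controls alone; 21.4% of the 7670 probe sets that passed were called lower. The median log2 difference of the 7 genes was -4.18, beside -0.11 over all probe sets. Its size depends on the offset: it was -6.09 with an offset of 1 and -3.10 with an offset of 100, where all probe sets had medians of -0.32 and -0.05. Markers of other cells were lower in the same comparison: 11 of 11 macrophage genes (median -4.91), 2 of 2 club cell genes (-6.30), 5 of 5 endothelial genes (-2.95), 5 of 5 epithelial genes (-2.48), 4 of 4 B cell genes (-1.98), 3 of 4 neutrophil genes (-2.41), 2 of 2 erythroid genes (-2.03), 2 of 4 type I genes (-1.51, 1 higher) and 1 of 4 T cell genes (-0.73) were called lower. The part of these cells in the member differences was not tested. For all 7 genes each of the 11 line means lay below both control arrays, as it did for 28.2% of all probe sets. In bulk RNA, fewer cells of a type and less RNA per cell cannot be told apart. No level of 1 gene is set against that of another, since each probe set has its own brightness.

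SP-C is a short lipopeptide made by type II cells and widely used as their marker, and Sftpc lies at chr14:70520941-70524081 (RefSeq, GRCm38.p6, as for all positions given here). The lowest, median and highest Sftpc signals on the 22 tumour arrays were 4.93, 24.04 and 61.2. On the control arrays Sftpc gave 787 (control 1) and 11196 (control 2). The groups did not overlap, and even the highest tumour array, A2B1 replicate 1, lay far below control 1. Sftpc averaged 23.8 ± 12.1 in the lines (SD, n = 11 lines), and its log2 difference was -5.81 (SE 0.60, limma adjusted p = 2.7e-06). It was -7.70 against control 2 alone and -3.93 against control 1 alone.

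SP-B, from Sftpb at chr6:72304610-72314373, is needed for lamellar bodies to form and for the surfactant film to spread. Sftpb signals on tumour arrays had a lowest value of 12.5, a median of 19.5 and a highest value of 36.2, against 194 on control 1 and 7067 on control 2. Again no tumour array reached either control. The line mean was 19.6 ± 4.65 (SD, n = 11 lines), with a log2 difference of -4.63 (SE 0.74, limma adjusted p = 0.000131). Without control 1 the difference was -7.12, and without control 2 it was -2.14.

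The promoter windows of Sftpb and Slc34a2 are shown because, of the 4 genes in the table of RefSeq promoter windows used here, these 2 stood furthest below control 2. That of Sftpb runs from 250 bases before to 50 after the RefSeq gene start, chr6:72304360-72304659 on the plus strand of GRCm38.p6. That of Slc34a2 is at chr5:53049103-53049402 on the plus strand. Capitals mark matches, on either strand, to CTCAAG (bound by NKX2-1), TGTTTNC (bound by FOXA factors) and TTNNGNAA (bound by C/EBP factors).
Sftpb: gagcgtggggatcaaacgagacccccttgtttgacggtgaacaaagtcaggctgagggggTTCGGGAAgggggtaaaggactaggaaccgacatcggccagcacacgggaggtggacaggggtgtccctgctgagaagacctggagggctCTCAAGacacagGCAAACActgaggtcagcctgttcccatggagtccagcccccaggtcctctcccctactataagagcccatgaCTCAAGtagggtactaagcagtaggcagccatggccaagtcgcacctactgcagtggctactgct
Slc34a2: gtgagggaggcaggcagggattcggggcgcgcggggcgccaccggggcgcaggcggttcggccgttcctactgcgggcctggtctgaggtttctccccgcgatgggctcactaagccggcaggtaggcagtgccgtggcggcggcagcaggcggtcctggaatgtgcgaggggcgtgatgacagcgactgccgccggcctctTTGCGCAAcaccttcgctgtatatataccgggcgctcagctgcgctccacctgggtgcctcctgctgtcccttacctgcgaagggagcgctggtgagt
In the Sftpb window CTCAAG occurred at positions -100 and -15 from the start, a FOXA match on the opposite strand at -88, and a C/EBP match at -190. The Slc34a2 window held only a C/EBP match, at -48. Among 32851 RefSeq promoter windows of the same length, 15.9% held CTCAAG, 20.5% TGTTTNC and 40.7% TTNNGNAA. The window of Chil1 held 1 FOXA and 1 C/EBP match. The window listed for Hc lies inside the gene span given below, not at its start, and is not described. The matches printed here do not overlap, and a match is a string of letters, not a site shown to be bound.

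Napsin A (Napsa, chr7:44572445-44586846) is an aspartic protease of lamellar bodies that helps cut the SP-B precursor. Napsa signals on the tumour arrays lay between 2.14 and 5.36, with a median of 3.46. On control 1 Napsa gave 313 and on control 2 it gave 4031. Its spread among lines was the narrowest in log2 units of the 7 genes, with an SD of 0.03 over the 11 line means. The line mean signal of 3.36 ± 0.614 (SD, n = 11 lines) stood at a log2 difference of -5.07 (SE 0.53, limma adjusted p = 3.1e-06). The difference was -6.84 against control 2 and -3.29 against control 1.

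Slc34a2 (chr5:53049353-53071664) is the sodium-phosphate cotransporter of the type II cell's apical membrane, which takes phosphate from the alveolar fluid. Its tumour signals had a lowest value of 1.88, a median of 5.20 and a highest value of 12.03. It gave 58.5 on control 1, which was below that array's median of 93.8, and 5029 on control 2. The log2 difference was -4.18 (SE 0.86, limma adjusted p = 0.000974), but -7.08 without control 1 and -1.27 without control 2. With either control alone the spread comes from the lines only, since the control gap drops out. The gene paragraphs therefore give single-control values without a call. Calls from those fits enter only the counts of alternatives in the last section.

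Chil1 (chr1:134182156-134190031) encodes a secreted chitinase-like lectin, and Hc (chr2:34983329-35068506) encodes complement component C5, a protein of the innate immune cascade. Chil1 signals were 0.943 to 10.8 on the tumour arrays, with a median of 2.51, against 51.2 on control 1 and 1245 on control 2. Its log2 difference was -3.21 (SE 0.59, limma adjusted p = 0.000383), and -1.24 without control 2. Hc signals were 1.75 to 19.3 on the tumour arrays, with a median of 4.85, against 19.8 on control 1 and 1173 on control 2. For Hc, A2B1 replicate 1 (19.3) thus almost met control 1 (19.8). Hc had a log2 difference of -2.69 (SE 0.68, limma adjusted p = 0.00409), and it was -0.42 without control 2, less than a 2-fold difference.

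Sftpd (chr14:41172212-41185198) was the 1 gene not called. Its tumour signals were 1.26 to 18.1, with a median of 9.21, against 30.1 on control 1 and 70.4 on control 2. Both control signals lay below the median of their array, so the probe set was dim on all 24 arrays. The log2 difference of -0.99 (SE 0.15, limma adjusted p = 7.7e-05) passed the p threshold and missed the 2-fold threshold. It was -1.35 without control 1 and -0.63 without control 2.

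**Figure D1:**
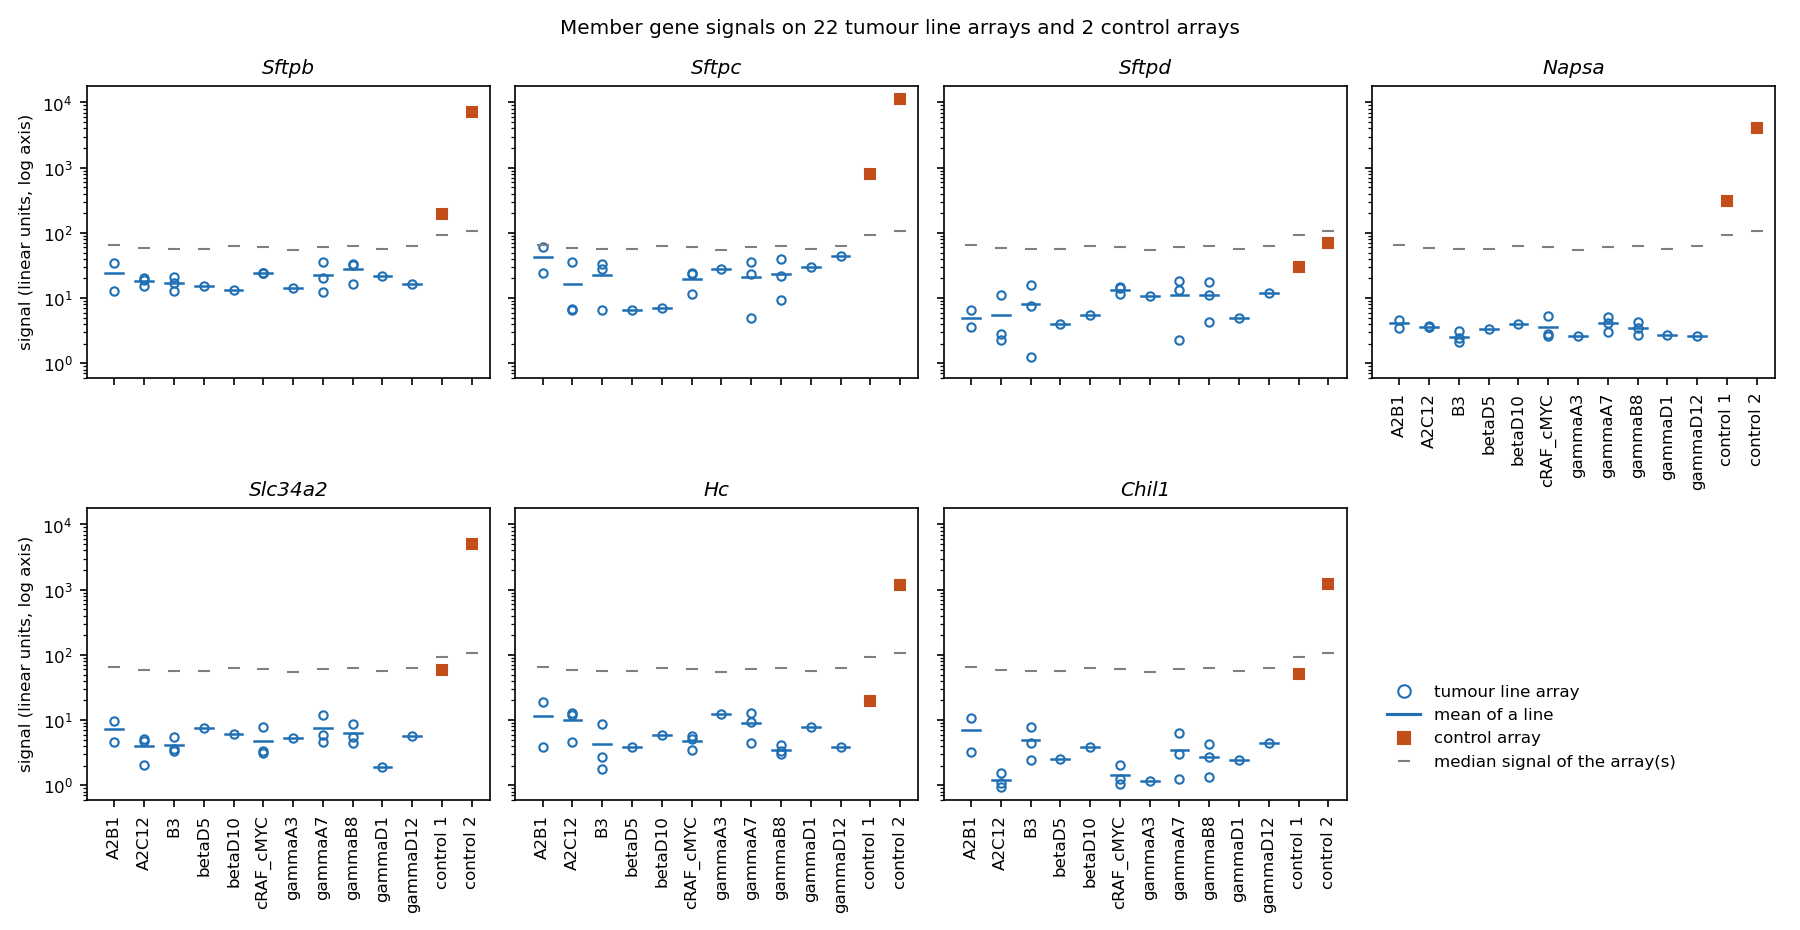
Signal (log axis) of each gene by tumour line, with a circle for each array and a bar at the line mean, and for the 2 control arrays (squares); grey dashes give array medians. Tumour values lie below the array medians throughout, Sftpb, Sftpc and Napsa lie above the median on both controls, and Slc34a2, Hc and Chil1 lie above it on control 2 alone.

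The gap between the 2 control arrays made up 87.9% of the residual sum of squares for Sftpc, 63.6% for Sftpd and 98.7% to 99.9% for the other members, beside a median of 8.16% over all probe sets. The fit takes the lines and the controls to share 1 spread, with 11 residual degrees of freedom. The SD of the 11 line means in log2 units was 0.03 to 0.31 over the 7 genes, beside a median of 0.22 over all probe sets. At the low signals of these genes the offset compresses that SD. The exact two-sided permutation test of the 11 line means against the 2 controls gave p = 0.0128 for each of the 7 genes, the smallest p that the 78 possible splits allow. For these genes that p restates that every line mean lay below both controls, as for 28.2% of all probe sets, and adds no support. Leaving out any single line or tumour array moved no member's log2 difference by more than 0.05.

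**Figure D2:**
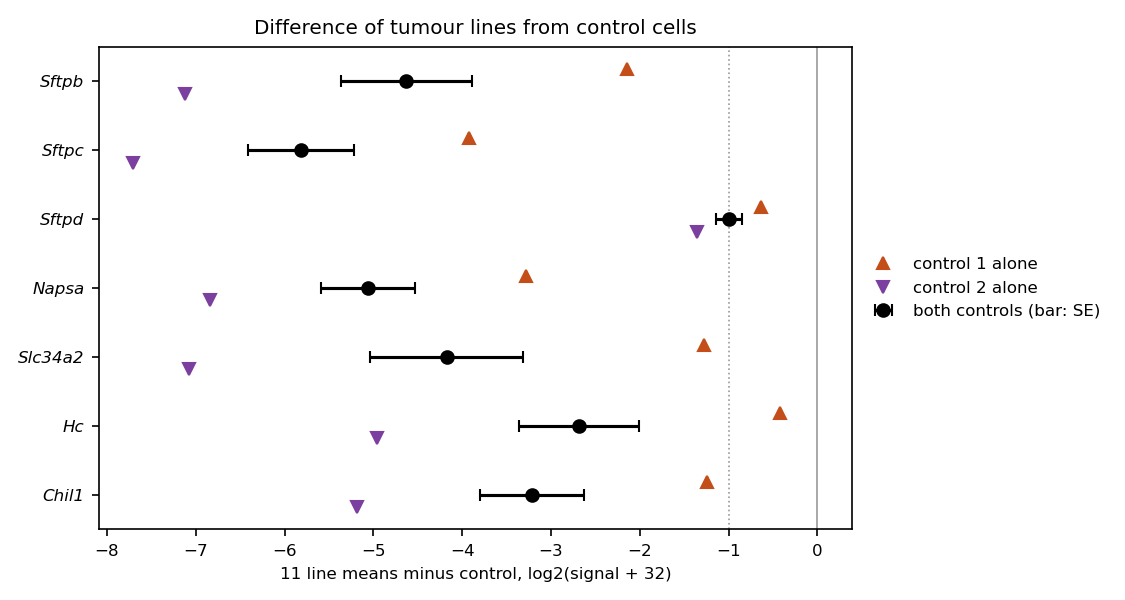
Difference of the 11 line means from control in log2(signal + 32) for each gene, against both control arrays (dots, bar SE) and against either control alone (triangles); the dotted line marks 2-fold. Every estimate lies below 0, and those against control 2 are the lower ones, from -1.35 for Sftpd to -7.70 for Sftpc.

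Each line was also set against the 2 controls by itself in a limma fit of 12 group means to all 24 arrays. Of the 77 pairs of line and gene, 68 were called lower, beside a mean of 16.1% of probe sets over the lines. Sftpb, Sftpc, Napsa, Slc34a2 and Chil1 were called in all 11 lines. Hc was called in 7 lines and missed the p threshold in betaD10, gammaA3, gammaD1 and gammaD12, each of which has 1 array, with limma adjusted p of 0.0537 to 0.0757. Sftpd was called in 6 lines. All 11 contrasts share the same control arrays. For Sftpc the log2 difference ran from -6.29 in betaD5 to -5.32 in gammaD12.

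Whether the residual signals differ among the lines was asked with a moderated F-test in limma. In the fit to all 24 arrays 2.16% of probe sets passed an adjusted p of 0.05 and none of the 7 genes did (limma adjusted p 0.993 to 1). For these genes the error of that fit includes the control gap. In a fit to the 22 tumour arrays, chosen after seeing the data, 2.58% of probe sets passed and again none of the 7 genes (limma adjusted p 0.755 to 1), with none at an unadjusted p under 0.05 in either fit. An order of the lines could not be told from the spread between their arrays. For Sftpc they ran from 6.68 in betaD5 to 43.8 in gammaD12, both lines with 1 array. Arrays of 1 line covered much of that range. The A2C12 arrays gave Sftpc signals of 6.56, 6.82 and 36.4, the B3 arrays 6.49, 28.0 and 33.2, and the gammaA7 arrays 4.93, 23.3 and 35.2. For Sftpb the line means ran from 13.4 in betaD10 to 27.5 in gammaB8, whose own arrays gave 16.3, 32.6 and 33.6. Napsa line means ran from 2.57 in B3 to 4.13 in gammaA7, and those of Slc34a2 from 1.88 in gammaD1 to 7.64 in betaD5. Hc ran from 3.49 in gammaB8 to 12.4 in gammaA3, Chil1 from 1.18 in gammaA3 to 7.01 in A2B1, and Sftpd from 4.00 in betaD5 to 13.5 in cRAF_cMYC. The line at the low or high end thus differed from gene to gene.

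A2B1 replicate 1 had the highest Sftpc (61.2), Hc (19.3) and Chil1 (10.8) signals of the 22 tumour arrays, and ranked second for Sftpb (34.9) and Slc34a2 (9.74). On the other A2B1 array Sftpc gave 24.4, Hc 3.90, Chil1 3.27, Sftpb 12.9 and Slc34a2 4.68. A2B1 replicate 1 also had the highest median signal of the tumour arrays, 75.5, and the highest summed signals of macrophage (431), B cell (158), T cell (173), endothelial (111) and erythroid (69.7) markers. Summed club (77.8) and epithelial (4635) markers were highest on gammaB8 replicate 1. Type I markers were highest on gammaA3 (4040) and neutrophil markers on the unnumbered A2C12 array (235). For Napsa A2B1 replicate 1 ranked 3 of 22, and for Sftpd 13 of 22. The part of the array median and the marker sums in the member values was not tested.

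The control preparations differed from each other in these genes. Sftpc was 14.2-fold, Napsa 12.9-fold and Sftpb 36.5-fold higher on control 2 than on control 1. For the others the control 1 signal was under its array's median, so a linear fold is poorly resolved. In log2(signal + 32), control 2 minus control 1, the gap was 5.81 for Slc34a2, 4.54 for Hc, 3.94 for Chil1 and 0.72 for Sftpd, beside 4.98 for Sftpb, 3.78 for Sftpc and 3.56 for Napsa. On that scale 6 of the 7 genes stood at least 2-fold higher on control 2, as did 6.4% of all probe sets, and the median gap was 3.94, beside 0.03 over all probe sets. With 1 array each there is no test of this gap. Control 2 held 6 of the 7 genes above its array median and control 1 held 3 (Sftpb, Sftpc and Napsa). In log2(signal + 32), line means minus control 1 were -3.93 for Sftpc, -3.29 for Napsa, -2.14 for Sftpb and -1.27 for Slc34a2. These differences were -1.24 for Chil1, -0.63 for Sftpd and -0.42 for Hc.

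Markers of other cells were set beside this gap. The 7 surfactant and secretory genes summed to 29811 on control 2 and 1452 on control 1, with 38.6 to 147 on tumour arrays. The 11 macrophage markers summed to 21118 on control 2 and 39516 on control 1, and to 181 to 431 on tumour arrays. Of the 11, 5 were at least 2-fold higher on control 1, Itgax was level (1001 on control 2, 996 on control 1) and Csf1r was higher on control 2 (1018, against 745 on control 1). The macrophage scavenger receptor Marco had the widest gap of the 11 and gave 79.4 on control 2 and 1626 on control 1, while the macrophage chitinase-like protein Chil3 gave 5224 on control 2 and 10853 on control 1. Of the 5 epithelial markers, keratin 8 (Krt8) gave 1467 on control 2 and 3646 on control 1, and Epcam gave 275 on control 2 and 109 on control 1. The 5 summed to 5135 on control 2 and 9641 on control 1, with 255 to 4635 on tumour arrays. The club cell genes Scgb1a1 and Cyp2f2 summed to 17143 on control 2 and 6207 on control 1, with 13.3 to 77.8 on tumour arrays. The 4 B cell markers were also higher on control 2, at a sum of 6669 against 154 on control 1, with 50.2 to 158 on tumour arrays. Among them the class II gene H2-Aa gave 4889 on control 2 and 11.5 on control 1, and so most of the control 2 sum. Cd79a gave 629 on control 2 and 39.7 on control 1, Cd79b 532 and 12.2, and Ms4a1 619 and 90.9. The 4 T cell markers summed to 363 on control 2 and 81.8 on control 1, with 24.9 to 173 on tumour arrays, and the 5 endothelial markers to 1969 and 713 in the same order, with 27.4 to 111. The 4 neutrophil markers summed to 3410 on control 2 and 621 on control 1, with 20.0 to 235 on tumour arrays, and the 2 erythroid markers to 1576 and 112, with 13.3 to 69.7. The 4 type I cell markers summed to 4714 on control 2 and 3209 on control 1, with 1736 to 4040 on tumour arrays. Most of the tumour sum came from Cav1 and Pdpn, with mean signals over the lines of 2383 and 602. Ager averaged 20.2 in the lines, against 1522 on control 2 and 364 on control 1. Hopx averaged 80.1, against 1625 on control 2 and 938 on control 1. The part of these cell types in the gap between the controls was not tested.

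**Figure D3:**
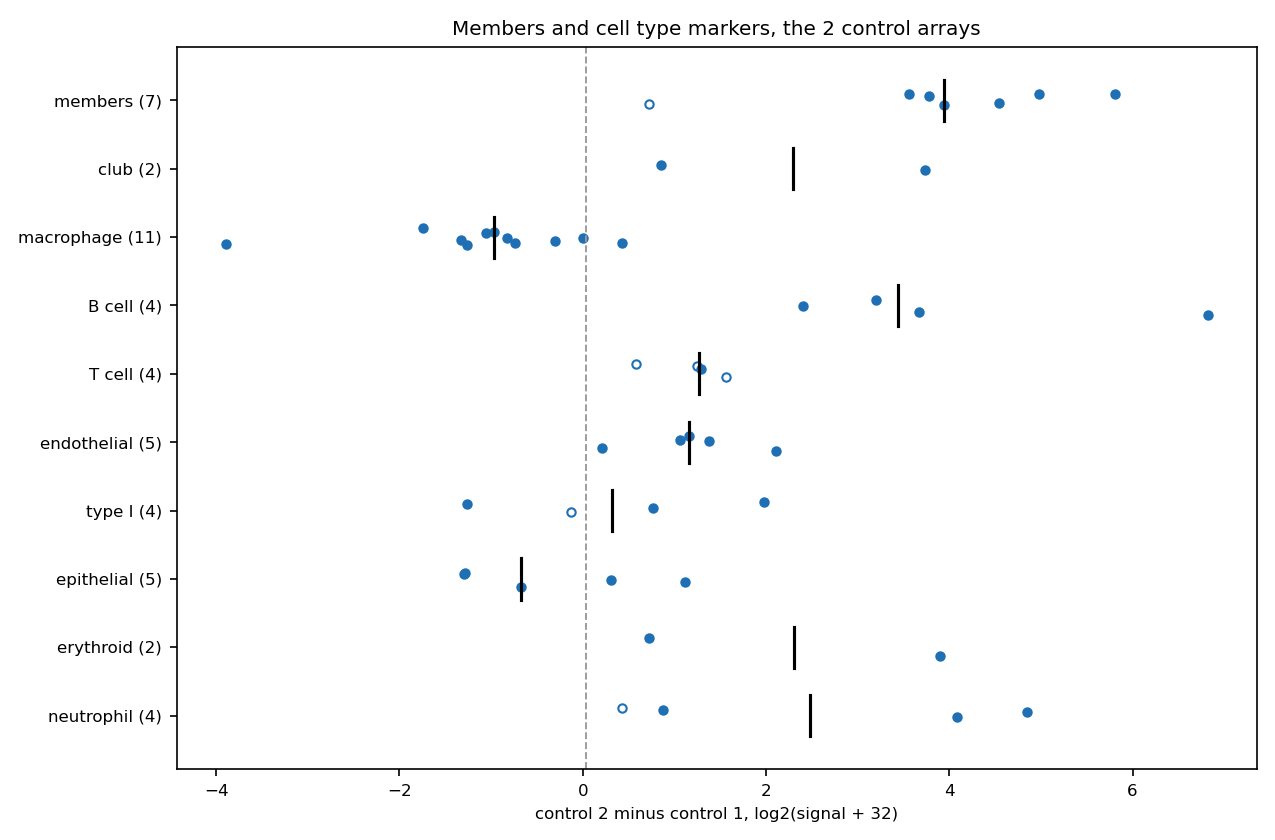
Log2(signal + 32) on control 2 minus control 1 for each gene of the member list and of 9 marker lists, with the number of genes in brackets; black bars are list medians, the dashed line is the median of all probe sets, and filled points were called between lines and control. Members have a median of 3.94, B cell markers 3.44 and macrophage markers -0.96.

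Genes that surround surfactant production were described from lists of lipid synthesis, transcription factors, proteases and other secreted proteins. Of 20 measured genes of surfactant lipid synthesis and lamellar bodies, 11 fell and 2 rose in the lines, with a median log2 difference of -1.21. The lipoprotein lipase Lpl (-5.27, SE 0.40), the lipid droplet protein Plin2 (-2.56, SE 0.34) and the fatty acid carrier Cd36 (-2.54, SE 0.12) fell furthest. All 3 are also expressed by macrophages, and Lpl and Plin2 were higher on control 1 (4910 and 7509) than on control 2 (1437 and 2773). Lpcat1, the acyltransferase that makes the saturated surfactant lecithin, gave 67.8 ± 10.8 (SD, n = 11 lines) in the lines, 136 on control 1 and 1206 on control 2. Its log2 difference was -2.21 (SE 0.44, limma adjusted p = 0.000781), and its values against either control alone were -0.77 and -3.65. The desaturase Scd2 (1.44, SE 0.22) and the elongase Elovl6 (1.85, SE 0.36) rose. Lpcat1, Scd2 and Elovl6 were picked after their values were seen.

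Among 13 measured transcription factors of type II cells, 3 fell, none rose and 10 were not called, with a median of -0.64. Cebpa, which drives late lung epithelial differentiation, fell to 56.3 ± 18.5 (SD, n = 11 lines) in the lines, against 1953 on control 1 and 3036 on control 2 (log2 difference -4.85, SE 0.24, limma adjusted p = 2.6e-09). Foxa1 fell to 10.6 ± 5.66 (SD, n = 11 lines), against 252 and 1068 on controls 1 and 2 (-3.73, SE 0.32, limma adjusted p = 5.8e-07), and Cebpb had a difference of -1.10 (SE 0.26). Foxa2, picked after its value was seen, gave 449.7 ± 97.2 (SD, n = 11 lines) in the lines and 145 and 613 on controls 1 and 2, a log2 difference of 0.43 (SE 0.41, limma adjusted p = 0.412). Nkx2-1, Etv5, Abca3 and Lamp3 were not analysed here.

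Cathepsin H (Ctsh), which takes part in cutting the SP-B and SP-C precursors, fell to 21.7 ± 29.7 (SD, n = 11 lines), against 1256 on control 1 and 1816 on control 2 (log2 difference -5.01, SE 0.33, limma adjusted p = 4.5e-08). Of the 12 processing and lysosomal genes 6 fell and none rose, with a median of -1.02, and Ctsc (-3.33, SE 0.44) and Ctsd (-1.92, SE 0.23) followed Ctsh. The log2 gap of Ctsh, control 2 minus control 1, was 0.52, and that of Napsa was 3.56. Ctsd gave 8978 on control 1 and 4787 on control 2, and Ctsc gave 1110 and 1050. The part of macrophages in the falls of these proteases was not tested.

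Among 11 other secreted lung epithelial proteins 9 fell and none rose, with a median log2 difference of -3.23. Scgb1a1, Lyz2 and the whey acidic protein family member Wfdc2 had the largest falls, with log2 differences of -7.39 (SE 0.23), -7.33 (SE 0.12) and -6.24 (SE 0.32). Their log2 gaps, control 2 minus control 1, were 0.85 for Scgb1a1, -0.13 for Lyz2 and 2.12 for Wfdc2. Lyz2 gave 6099 on control 1 and 5582 on control 2, where summed macrophage markers were 39516 and 21118. The part of macrophages in these falls was not tested. Of 10 genes of apical and secretory machinery 5 fell and none rose (median -0.94), led by the tight junction protein Cldn3 (-4.38, SE 0.26), the membrane mucin Muc1 (-4.24, SE 0.41) and the secretory granule GTPase Rab3d (-1.83, SE 0.20). Of 13 genes for surfactant clearance and collectin binding, 9 fell and 1, Anxa2, rose (1.02, SE 0.13), with a median of -2.26. The myeloid factor Spi1 (-3.95, SE 0.17), the GM-CSF receptor chain Csf2ra (-3.50, SE 0.22) and Marco (-3.48, SE 0.58) fell furthest, and alveolar macrophages, which clear surfactant, express all 3. The lists were chosen with earlier results of these data known, and their counts are read beside 16.9% lower and 10.1% higher over all probe sets.

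**Figure D4:**
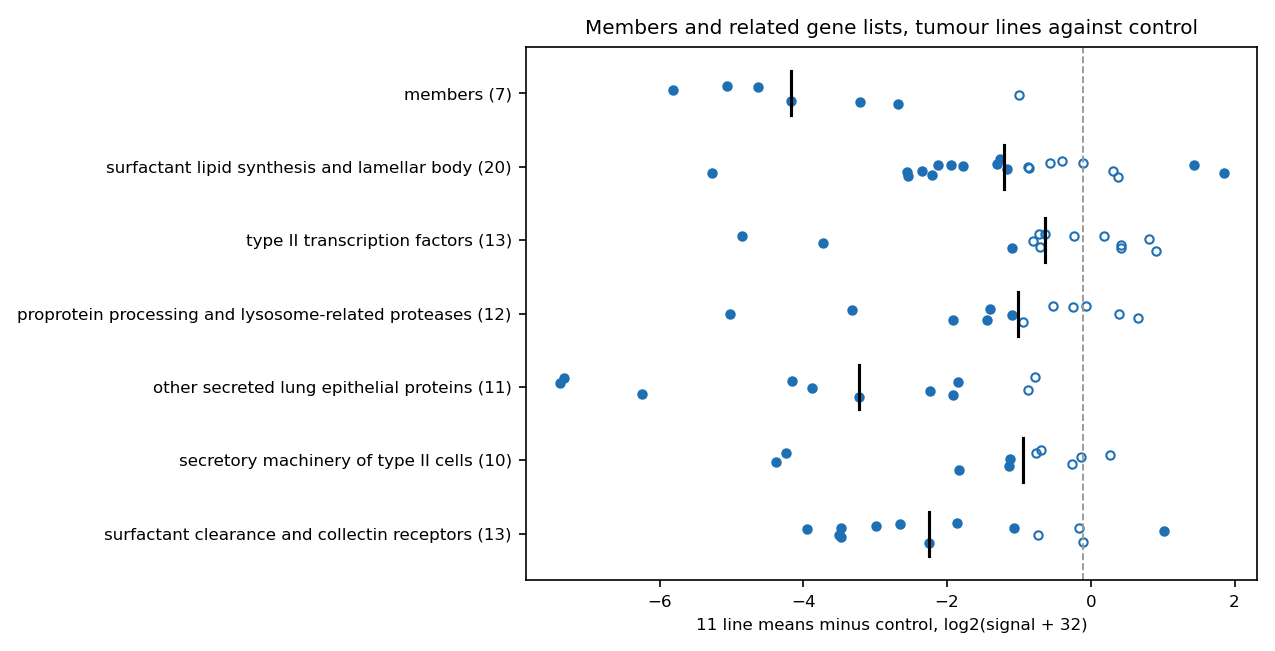
Difference of the 11 line means from control in log2(signal + 32) for the surfactant and secretory genes (members) and 6 related lists, with the number of genes in brackets; filled points were called, open points were not, black bars are list medians and the dashed line is the median of all probe sets. Member genes have a median of -4.18, other secreted proteins -3.23 and transcription factors -0.64.

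The genes whose log2 levels were most like the mean of the 7 over 13 points, the 11 line means and 2 control arrays, were Aqp1 (Pearson r = 0.997), Zap70 (0.997), Inmt (0.996), Ces1d (0.995) and Acap1 (0.994), out of 10826 probe sets. Aqp1 is a water channel, Zap70 a T cell kinase, Inmt a methyltransferase and Ces1d a carboxylesterase. Aqp1 gave 2.47 ± 1.26 (SD, n = 11 lines) in the lines, 51.3 on control 1 and 797 on control 2. Ces1d gave 3.90 ± 3.16 in the lines, 199 on control 1 and 3422 on control 2. These correlations rest on the 2 control points, since the lines lie together at low signal, and are given as a description. The probe set of Ces1d is of a type that can match related carboxylesterase genes, and that of Zap70 is of a type that can match several transcripts. Acap1 was dim, with 12.8 on control 1 and 36.0 on control 2, each under the median of its array.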

How the data were processed

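The authors deposited 1 linear intensity per probe set and array. The submitters' processing notes name GCOS, without a version, and background correction and detection calls are not stated in them. The trimmed mean was the same on all 24 arrays, so the authors' signals had been scaled array by array and a difference is relative to the rest of the RNA on an array. The 66 control probe sets were left out. Of 12422 probe sets, 10833 had 1 gene symbol in the platform annotation, 396 several and 1193 none. Where a gene of a list had several probe sets, the one with the highest mean signal was used.

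Signals were taken as log2(signal + 32) and fitted with limma 3.58.1 in R 4.3.3, without an expression filter, with p-values adjusted by Benjamini-Hochberg over all 12422 probe sets. The filter of an alternative (signal above the array's median on at least 2 arrays) kept 7670 probe sets and 3 of the 7 members, Sftpb, Sftpc and Napsa. The fits were tested on simulated data. Genes outside the members were named as up to 3 per list with the largest difference and the 5 most like the members, with exceptions stated. Members and lists were chosen with earlier results of these data known. Alternatives were other scalings, offsets of 1 and 100, a floor, a filter, other variance models, 1 array per line, numbered arrays only, and leaving out lines or arrays. No pair of arrays shared most of its values. Promoter windows came from a RefSeq table (GRCm38.p6) that holds 4 of the 7 members.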

Additional observations from a re-analysis of the deposited data

How the results depend on the processing

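All member values on tumour arrays lay below both controls, so only the other scalings could have changed the sign of a member's difference. Of the 40 alternatives, 28 left out 1 line or tumour array and moved no difference by more than 0.05. No log2 difference of a member between lines and control changed sign under the 40 alternatives. Of 276 such values, 262 stayed on the same side of the thresholds (Sftpd, Slc34a2, Hc and Chil1 had no value under the filter). The exceptions were Hc, not called on numbered arrays only (-2.66, limma adjusted p = 0.0531) or without control 2 (-0.42), and Sftpd, called under 12 alternatives, among them an offset of 1 (-2.54) and 1 array per line (-1.03). Members called lower numbered 7 without control 1 and 5 without control 2, fits in which the lines give all of the spread and the lone control is assumed to vary like them. With the filter they numbered 3, which passed it only through the controls. Probe sets called between lines and control numbered 3363, against 4916 with an offset of 1 and 2157 with an offset of 100. With the filter 21.4% of 7670 probe sets were lower. The F-test count among lines was 268, 320 on tumour arrays only, 121 with an offset of 1 and 55 to 822 when 1 array was left out, lowest without A2C12 replicate 2 and highest without the unnumbered A2B1 array. Members past that test numbered 0 under each of these. Except on tumour arrays only, the error for these genes included the control gap, so those counts of 0 say little about the lines. With the replicate number as a block on the numbered arrays of 5 lines the count was 1200, against 1369 without the block, and no member passed (limma unadjusted p 0.0888 to 0.956). Replicate 1 minus replicate 2 correlated above 0.1 in 1 of 10 pairs of lines (cRAF_cMYC and gammaA7, r = 0.703), so replicate numbers were not taken to pair the samples across lines, although the arrays of that 1 pair of lines deviated together. The median gap of the members between control 2 and control 1 was 3.41 to 4.70 under other scalings and offsets. Low signals near the floor have no resolved order, which limits comparisons among lines.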
